A study of Mus musculus with 6 samples.

Results

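The genes described here are 10 mouse genes that mark or serve the transmitter systems of single types of amacrine cell. They were chosen by name and not by a threshold on measured values. All 10 were found by their Ensembl identifiers among the 32371 genes of the count table. *Chat*, *Slc18a3*, *Slc5a7* and *Megf10* belong to the cholinergic starburst cells, *Th*, *Slc18a2* and *Ddc* to the dopaminergic cells, *Slc17a8* to the VGluT3 cells, *Nos1* to the nitrergic cells and *Gjd2* to the AII cells. The question was which of these amacrine types differed between the groups.

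The data were RNA-Seq read counts from 6 libraries of sorted retinal cells of adult C57BL/6J mice of both sexes. In the GFP group (n = 3), AAV2-GFP was injected into the vitreous, and in the Ezh2-Y726D group (n = 3), AAV2-Ezh2-Y726D, which carries a catalytically dead form of the histone methyltransferase Ezh2. All mice then underwent an optic nerve crush (ONC) 2 weeks after the virus, and cells positive for CD90.2, the product of *Thy1*, were sorted 3 days after the ONC, so every group is an injured retina and none is untreated. AAV2 given into the vitreous also transduces retinal cells other than ganglion cells, and the sources used here do not state whether retinas of several mice went into 1 library, so that p-values measure only the spread between these libraries.

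Amacrine cells are the interneurons of the inner retina, and nearly all of them release GABA or glycine, which Gad1, Gad2, the vesicular transporter Slc32a1 and the glycine transporter Slc6a9 serve. A few types release a further messenger. Starburst cells release acetylcholine and are needed for direction selectivity, dopaminergic cells adapt the retina to light, VGluT3 cells release glutamate beside glycine, nitrergic cells make nitric oxide, and AII cells carry rod signals to cone bipolar cells through gap junctions.

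The libraries are labelled as retinal ganglion cells. The 10 markers of that cell type on the list used here were all detected and summed to between 434 and 473 CPM over the 6 libraries, where CPM is edgeR's count per unit of TMM-scaled library size, a measure of relative abundance. In contrast, 10 pan-amacrine genes summed to between 1597 and 2527 CPM, 6 rod genes to between 5343 and 6059 CPM and 6 Müller glia genes to between 6395 and 8077 CPM. Thus the sorted cells held the RNA of many retinal cell types. *Ezh2*, the gene that the Ezh2-Y726D vector carries in mutant form, was at 22.7, 23.9 and 26.4 CPM in GFP replicates 1, 2 and 3, and with Ezh2-Y726D it reached 65.2, 65.6 and 65.2 CPM. Total counts ran from 9333244 to 23782520. In GFP replicates 2 and 3, 1 ribosomal RNA gene took 50.9% and 52.2% of the counts, against 2.55% to 16.1% in the other 4 libraries, and 3 counts in a library stand for between 0.102 and 0.498 CPM. Values of genes with few counts are therefore least precise in these GFP libraries.

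Of the 10 genes, *Slc18a2* and *Nos1* were differentially expressed, both higher in Ezh2-Y726D, which means an edgeR adjusted P below 0.05 with a change of more than 1.5-fold among the 18138 genes tested. No member was lower by this rule. Of all genes tested, 8.02% were called, 2.52% higher and 5.5% lower. *Slc17a8* was higher at an adjusted P under 0.05 with a smaller fold change, which brought the members at that P alone to 3 higher and 0 lower, against 27.5% of all genes, 13.9% higher and 13.6% lower. *Slc5a7*, *Megf10*, *Th* and *Gjd2* did not pass the test, and *Chat*, *Slc18a3* and *Ddc* had too few counts to be tested. The filter asked for about 0.519 unscaled CPM in at least 3 libraries, which 6 members met in all 6 libraries and *Slc5a7* in 2 GFP and 3 Ezh2-Y726D libraries. *Slc5a7* thus entered the test through the group in which it was higher, and no median over the members tested is given. In the plot of each library's CPM, the groups stand apart for *Slc18a2*, *Nos1* and *Slc17a8*, and the points of *Megf10* and *Th* are mixed. In sorted bulk samples, fewer cells of a type and less RNA per cell cannot be told apart. Which cells held the RNA of a member, *Slc18a2* and *Nos1* included, was not tested.

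**Figure D1:**
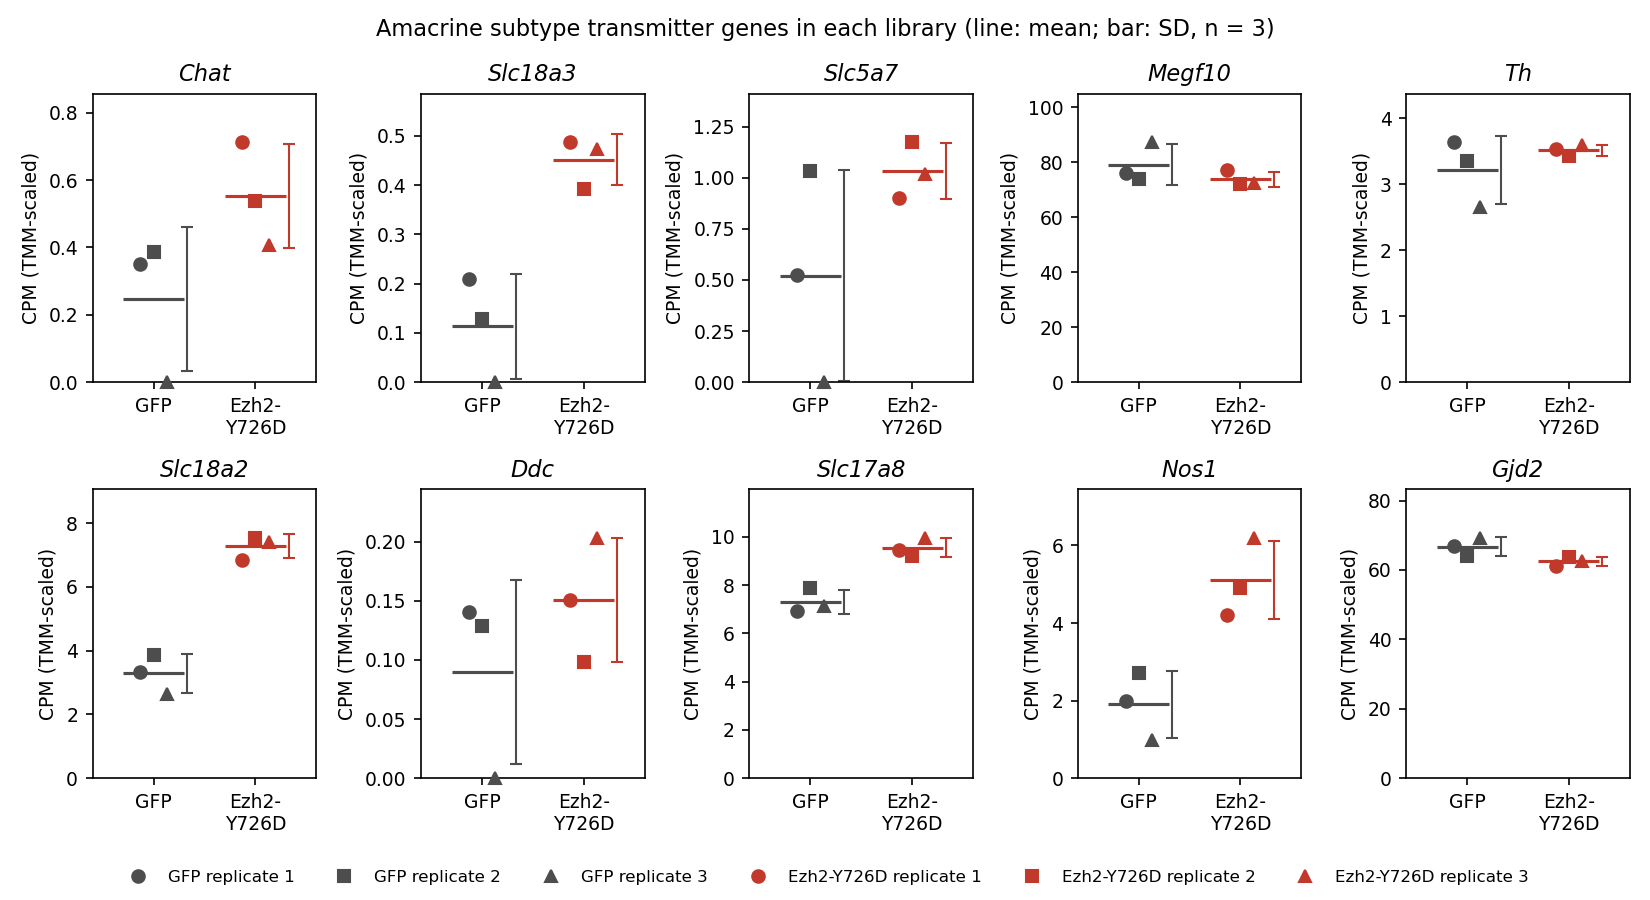
CPM of the TMM-scaled library (vertical axes, each from 0) of the 10 genes in GFP (grey) and Ezh2-Y726D (red) replicates 1, 2 and 3 (circle, square and triangle), with the mean as a line and the SD as a bar (n = 3). *Slc18a2* lies between 2.65 and 3.87 in GFP and between 6.84 and 7.55 in Ezh2-Y726D, and *Th* lies between 2.65 and 3.65 in GFP and between 3.43 and 3.59 in Ezh2-Y726D.

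The dopaminergic genes did not move as 1 group. *Slc18a2* encodes VMAT2, which loads dopamine and other monoamines into synaptic vesicles, and lies on chromosome 19 from 59260896 to 59296012 (plus strand, GRCm38, GENCODE vM21). It was at 3.33, 3.87 and 2.65 CPM in GFP replicates 1, 2 and 3, while Ezh2-Y726D replicates 1, 2 and 3 had 6.84, 7.55 and 7.42 CPM. Every Ezh2-Y726D library was above every GFP library, by more than the spread within either group. The mean rose from 3.29 ± 0.609 to 7.27 ± 0.377 CPM (SD, n = 3 each), a log2 fold change of 1.12 (SE 0.143, adjusted P = 4.39e-07, edgeR) or 2.18-fold. Its log2 fold change stood at percentile 99.4 of all genes tested. Of its exonic bases, 2.12% overlap *Gm29261* on the opposite strand, and whether reads were counted by strand is not given in the sources used here.

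*Th* encodes tyrosine hydroxylase, the rate-limiting enzyme of dopamine synthesis and the standard marker of dopaminergic amacrine cells, and lies on chromosome 7 from 142892752 to 142931128 (minus strand). It was at 3.65, 3.35 and 2.65 CPM in GFP and at 3.53, 3.43 and 3.59 CPM in Ezh2-Y726D. The Ezh2-Y726D libraries lay within the GFP range. The log2 fold change was 0.05 (SE 0.166, adjusted P = 0.916, edgeR) and fell to -0.02 without GFP replicate 3. *Ddc*, on chromosome 11 from 11814101 to 11898144, encodes the decarboxylase that turns L-DOPA into dopamine. Its counts were 4, 1 and 0 in GFP and 4, 2 and 6 in Ezh2-Y726D. At this depth no difference was detectable, and the pooled ratio was 1.33 with an exact 95% interval from 0.435 to 4.81, which covers counting error only.

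*Slc18a2* and *Th* both serve dopaminergic cells, and their ratio was compared per exonic length, as RPKM, which is CPM divided by the exonic length in kilobases. *Ddc*, which serves the same cells, had a mean of only 0.0201 RPKM in GFP. Whether the RNA of *Slc18a2* and *Th* came from the same cells was not tested, so their ratio is not a measure within dopaminergic cells. The ratio of *Slc18a2* to *Th* was 0.413, 0.522 and 0.452 in GFP and 0.876, 0.995 and 0.935 in Ezh2-Y726D. The groups did not overlap, and the mean was 0.463 ± 0.0551 in GFP and 0.935 ± 0.0597 in Ezh2-Y726D (SD, n = 3 each), a log2 difference of 1.02. The exact 2-sided permutation P was 0.1, the smallest that 3 libraries against 3 allow, and it is 1 of 9 ratios of member pairs computed, of which 7 could be tested. In the plot of *Slc18a2* against *Th*, the groups part along the *Slc18a2* axis.

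**Figure D2:**
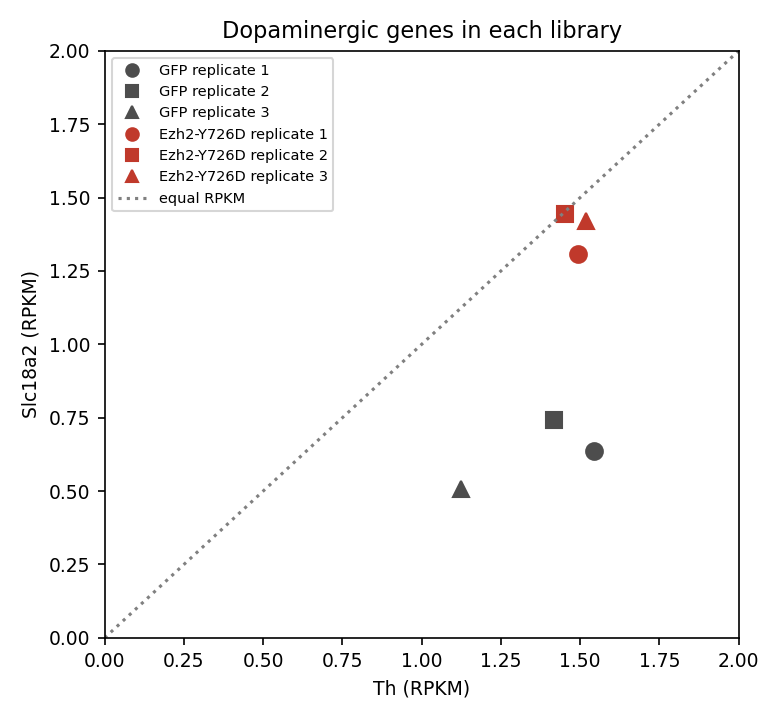
RPKM of *Slc18a2* (vertical axis) against RPKM of *Th* (horizontal axis) in each GFP (grey) and Ezh2-Y726D (red) library, with a dotted line where both are equal. The 3 Ezh2-Y726D libraries sit near that line, at 1.31 to 1.44 RPKM of *Slc18a2*, and the 3 GFP libraries lie under it, at 0.508 to 0.741 RPKM.

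The promoters of *Slc18a2* and *Th* are printed because these genes serve 1 pathway and differed in their fold change. The windows come from RefSeq (GRCm38.p6) and run from 250 bases before to 50 bases after the start site. They cover chr19:59260628-59260927 on the plus strand for *Slc18a2* and chr7:142899946-142900245 on the minus strand for *Th*. The start site of the *Th* window lies 31133 bases inside the span of the gene in GENCODE, and that of *Slc18a2* lies 18 bases outside it. Capitals mark the motifs searched for on both strands, which are the cAMP response element TGACGTCA, the AP-1 site TGANTCA, the TATA box TATAAA and the GC box GGGCGG.

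Slc18a2: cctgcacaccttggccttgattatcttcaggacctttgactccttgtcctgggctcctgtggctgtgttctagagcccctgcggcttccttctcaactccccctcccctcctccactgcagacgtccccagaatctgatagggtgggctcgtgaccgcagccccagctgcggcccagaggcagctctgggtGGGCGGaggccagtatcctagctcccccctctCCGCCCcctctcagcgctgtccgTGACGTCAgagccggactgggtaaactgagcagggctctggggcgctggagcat

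Th: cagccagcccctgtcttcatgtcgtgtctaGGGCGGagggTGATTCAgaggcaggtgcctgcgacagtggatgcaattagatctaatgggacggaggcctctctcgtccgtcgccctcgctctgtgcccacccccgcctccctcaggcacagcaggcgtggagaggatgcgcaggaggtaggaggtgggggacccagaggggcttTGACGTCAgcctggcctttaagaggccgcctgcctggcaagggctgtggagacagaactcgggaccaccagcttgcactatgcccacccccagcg

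TGACGTCA was found in both windows, with its first base at -45 from the start site in *Th* and at -4 in *Slc18a2*. Among 32851 promoters of the same length, 1.79% hold it. The GC box, which 35.7% of promoters hold, was found in both windows, and TGANTCA, which 7.81% hold, at -210 in *Th* and not in *Slc18a2*. A match describes letters and does not by itself show a binding site.

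Among the other genes of the dopamine pathway, 12 of 14 measured were tested, of which 4 were higher and 1 was lower at an adjusted P under 0.05, with a median log2 fold change of 0.00. *Drd5*, a D1-type dopamine receptor, was the one past 1.5-fold, with a log2 fold change of 0.98 (SE 0.236, adjusted P = 0.00201, edgeR). It was measured at 1.31 ± 0.321 CPM in GFP and 2.50 ± 0.254 CPM in Ezh2-Y726D (SD, n = 3 each), and 48.6% of its exonic bases overlap *Gm26560* on the opposite strand. *Gch1*, which starts the synthesis of the cofactor of tyrosine hydroxylase, had a log2 fold change of -0.42 that did not pass the test (adjusted P = 0.124, edgeR). *Slc6a3*, the dopamine transporter of the plasma membrane, had too few counts to be tested, at 0.199 ± 0.194 CPM in GFP and 0.434 ± 0.214 CPM in Ezh2-Y726D. *Drd3* was not analysed here.

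*Nos1* showed the largest log2 fold change of the 7 members tested. It encodes the neuronal nitric oxide synthase and lies on chromosome 5 from 117781032 to 117958840 (plus strand). It was at 2.00, 2.71 and 0.995 CPM in GFP and at 4.21, 4.90 and 6.20 CPM in Ezh2-Y726D. The lowest Ezh2-Y726D library was above the highest GFP library, and the lowest value, in GFP replicate 3, rests on 6 counts. The mean rose from 1.90 ± 0.861 to 5.10 ± 1.01 CPM (SD, n = 3 each), a log2 fold change of 1.37 (SE 0.208, adjusted P = 6.55e-06, edgeR) or 2.59-fold. Without GFP replicate 3 it was 1.24 (adjusted P = 3.09e-05, edgeR). Its log2 fold change stood at percentile 99.7 of all genes tested, and 2.40% of its exonic bases overlap *Gm26995* on the opposite strand.

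*Nos1* has several start sites, and the window in RefSeq, chr5:117866589-117866888 on the plus strand, has its start site 85807 bases inside the span of the gene in GENCODE. It is printed because this gene had the largest log2 fold change of the 7 members tested, and none of the 4 motifs was found in it. That says only that these letters are not in this window.

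Nos1: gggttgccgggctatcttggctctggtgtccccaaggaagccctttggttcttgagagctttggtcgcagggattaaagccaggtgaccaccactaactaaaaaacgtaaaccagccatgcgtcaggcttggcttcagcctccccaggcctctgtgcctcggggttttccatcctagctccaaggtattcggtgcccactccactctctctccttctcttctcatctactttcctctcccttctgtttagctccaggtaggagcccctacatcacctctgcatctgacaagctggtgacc

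The other genes of nitric oxide signaling on the list numbered 9, of which 8 were tested, 5 were higher and 1 was lower at an adjusted P under 0.05, with a median log2 fold change of 0.19. *Nos1ap*, an adaptor protein of neuronal nitric oxide synthase, was at 7.38 ± 0.207 CPM in GFP and 10.3 ± 0.384 CPM in Ezh2-Y726D (SD, n = 3 each), with a log2 fold change of 0.46 (SE 0.105, adjusted P = 0.00109, edgeR). The subunits of soluble guanylate cyclase, the receptor of nitric oxide, rose by 0.20 for *Gucy1a1*, by 0.45 for *Gucy1a2* and by 0.27 for *Gucy1b1* on the log2 scale (adjusted P = 1.95e-04, 0.00150 and 1.12e-05, edgeR). The lower gene was the cGMP-dependent kinase gene *Prkg2*, which was singled out after its values were seen. Its log2 fold change was -1.41 (adjusted P = 0.00538, edgeR), its groups overlapped, and it counted 34, 3 and 7 reads in GFP and 12, 8 and 9 in Ezh2-Y726D. *Prkg2* was not called with DESeq2 or without GFP replicate 1, which holds most of its GFP reads.

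*Slc17a8* encodes VGluT3, the vesicular glutamate transporter of amacrine cells, and lies on chromosome 10 from 89574020 to 89621253 (minus strand). It was at 6.91, 7.87 and 7.13 CPM in GFP and at 9.47, 9.21 and 9.96 CPM in Ezh2-Y726D. The groups did not overlap, and the gap between them was wider than the range within either group. The mean rose from 7.30 ± 0.501 to 9.55 ± 0.381 CPM (SD, n = 3 each), a log2 fold change of 0.42 (SE 0.109, adjusted P = 0.00402, edgeR) or 1.34-fold. Its log2 fold change stood at percentile 92.1 of all genes tested. Without GFP replicate 1, the deepest GFP library, the log2 fold change was 0.34 and did not pass the test (adjusted P = 0.113, edgeR).

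The other vesicular glutamate transporters mark other retinal neurons. *Slc17a6*, VGluT2 of ganglion cells, was at 80.6 ± 3.82 CPM in GFP and 81.5 ± 3.92 CPM in Ezh2-Y726D, with a log2 fold change of 0.03 (adjusted P = 0.714, edgeR). *Slc17a7*, VGluT1 of photoreceptors and bipolar cells, was lower in Ezh2-Y726D, at 357.6 ± 23.7 CPM in GFP and 297.7 ± 5.72 CPM in Ezh2-Y726D (log2 fold change -0.27, SE 0.0436, adjusted P = 1.96e-05, edgeR). Thus of the 3 transporter genes, *Slc17a8* was the one that was higher.

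The defining genes of starburst cells were close to the limit of detection. *Chat* encodes the enzyme that makes acetylcholine, *Slc18a3* the transporter that loads it into vesicles, and *Slc5a7* the choline transporter that supplies its precursor. *Chat* spans chromosome 14 from 32408203 to 32465989 (minus strand) and *Slc18a3*, which has a single exon, lies within that span from 32462438 to 32464850 on the same strand. Their exons do not overlap, but reads of unspliced *Chat* RNA across that stretch could not be told from reads of *Slc18a3*. *Slc5a7* lies on chromosome 17 from 54273590 to 54299034 (minus strand).

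*Chat* had 10, 3 and 0 counts in GFP replicates 1, 2 and 3 and 19, 11 and 12 in the Ezh2-Y726D replicates. *Slc18a3* had 6, 1 and 0 counts in GFP and 13, 8 and 14 in Ezh2-Y726D. *Slc5a7* had 15, 8 and 0 counts in GFP and 24, 24 and 30 in Ezh2-Y726D. GFP replicate 3 thus held no count of any of the 3 genes, and a count of 0 there allows up to 0.498 CPM of each, a level that the highest of the Ezh2-Y726D libraries exceeded for *Chat*, at 0.714 CPM, and for *Slc5a7*, at 1.18 CPM, but not for *Slc18a3*, at 0.489 CPM.

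On the CPM scale *Chat* was at 0.351, 0.387 and 0 in GFP and at 0.714, 0.539 and 0.407 in Ezh2-Y726D, *Slc18a3* at 0.210, 0.129 and 0 and at 0.489, 0.392 and 0.474, and *Slc5a7* at 0.526, 1.03 and 0 and at 0.902, 1.18 and 1.02. The groups overlapped for *Slc5a7*. For *Chat* and *Slc18a3* the listed values did not overlap, but what the 0 of GFP replicate 3 allows reaches above the lowest Ezh2-Y726D library of *Chat* and above every Ezh2-Y726D library of *Slc18a3*. Pooled over the libraries of each group, the ratio of Ezh2-Y726D to GFP was 1.79 for *Chat* (exact 95% interval 0.940 to 3.63), 2.76 for *Slc18a3* (1.21 to 7.37) and 1.87 for *Slc5a7* (1.16 to 3.13), where the intervals cover counting error only. In the fit over all genes, *Slc5a7* had a log2 fold change of 0.90 (SE 0.396, adjusted P = 0.0948, edgeR), which passed the test without GFP replicate 2 (1.26, adjusted P = 0.0444, edgeR). Fitted without the filter on low counts, *Chat* had an adjusted P of 0.325, *Slc18a3* of 0.0945 and *Slc5a7* of 0.0818 in edgeR. None of the 3 genes was thus called, at a depth of between 0 and 30 counts per library.

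*Megf10*, on chromosome 18 from 57133090 to 57297467 (plus strand), encodes a transmembrane receptor that spaces starburst cells into a regular mosaic, and retinal glia also express it. It was at 76.1, 73.9 and 87.6 CPM in GFP and at 77.1, 72.1 and 72.6 CPM in Ezh2-Y726D. The groups overlapped, and the log2 fold change was -0.08 (SE 0.0532, adjusted P = 0.295, edgeR). Müller glia, of whose 6 listed markers 1 was higher and 2 were lower at an adjusted P under 0.05, summed to between 7716 and 8077 CPM in GFP and between 6395 and 6583 CPM in Ezh2-Y726D, none of them at 0 in all libraries. Most of that difference lay in *Apoe*, which microglia also express and which was at 3099 ± 85.9 CPM in GFP and 1983 ± 15.03 CPM in Ezh2-Y726D (SD, n = 3 each), whereas *Glul* was at 2973 ± 47.7 and 2792 ± 70.0 CPM and did not pass the test (adjusted P = 0.0873, edgeR). The part of these cells in the level of *Megf10* was not tested.

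Of 6 other genes of the acetylcholine pathway tested, 2 were higher and 1 was lower at an adjusted P under 0.05, with a median log2 fold change of 0.04. *Chrm2*, an inhibitory muscarinic receptor, was called at 15.9 ± 1.09 CPM in GFP and 26.7 ± 1.61 CPM in Ezh2-Y726D (log2 fold change 0.71, SE 0.0759, adjusted P = 2.01e-08, edgeR). *Ache*, the enzyme that degrades acetylcholine, rose from 39.0 ± 2.37 to 54.6 ± 1.77 CPM (log2 fold change 0.45, adjusted P = 4.69e-07, edgeR). *Slc44a1*, a choline transporter of many cell types, had a log2 fold change of -0.05 (adjusted P = 0.612, edgeR). Of the 3 starburst identity genes tested, *Isl1* was lower and none was higher. *Isl1*, a homeobox gene that bipolar and ganglion cells express as well, fell by 0.58 on the log2 scale (SE 0.0607, adjusted P = 1.45e-08, edgeR), and 7 of 8 listed bipolar genes, *Isl1* among them, were lower. *Sox2*, which Müller glia also express, had a log2 fold change of -0.08 (adjusted P = 0.332, edgeR), and *Fezf1* had too few counts to be tested, at 0.165 ± 0.0939 and 0.156 ± 0.0121 CPM.

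*Gjd2* encodes connexin 36, which forms the gap junctions between AII cells and cone bipolar cells, and cones, bipolar cells and ganglion cells express it as well. It lies on chromosome 2 from 114009601 to 114013619 (minus strand), and 1.98% of its exonic bases overlap *A530058N18Rik* on the opposite strand. It was at 66.8, 64.0 and 69.3 CPM in GFP and at 61.2, 63.7 and 62.5 CPM in Ezh2-Y726D. The groups did not overlap, but the highest Ezh2-Y726D library was next to the lowest GFP library. The mean was 66.7 ± 2.68 CPM in GFP and 62.5 ± 1.24 CPM in Ezh2-Y726D (SD, n = 3 each), a log2 fold change of -0.09 (SE 0.0496) that did not pass the test (adjusted P = 0.178, edgeR). Among the 7 members tested, the groups did not overlap for 3 that were higher and 1 that was lower, against 38.6% of all genes, 19.7% higher and 18.9% lower.

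Genes on the list of AII cells and electrical coupling moved in both directions. Of 5 tested, 3 were higher and 2 were lower at an adjusted P under 0.05. *Dab1*, an adaptor of reelin signaling that marks AII cells, rose from 49.1 ± 1.53 to 65.8 ± 2.73 CPM (log2 fold change 0.42, SE 0.0530, adjusted P = 3.68e-07, edgeR). *Calb2*, which encodes the calcium-binding protein calretinin of AII and other inner retinal cells, rose by 0.30 on the log2 scale (adjusted P = 1.10e-05, edgeR). *Prox1*, a homeobox gene of AII, bipolar and horizontal cells, fell by 0.15 (adjusted P = 0.00622, edgeR), and *Gja1*, the connexin 43 of glia, fell by 0.61 (adjusted P = 0.0294, edgeR). *Gja1* was not called with DESeq2 or without GFP replicate 1. *Gjb6* was not analysed here.

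Per exonic length, the levels of the 10 genes in the GFP libraries spread widely. *Gjd2* was highest at 23.2 ± 0.930 RPKM (SD, n = 3), followed by *Megf10* at 10.3 ± 0.952 RPKM. *Slc17a8* at 1.55 ± 0.106, *Th* at 1.36 ± 0.216 and *Slc18a2* at 0.629 ± 0.117 RPKM came next, and of these *Slc17a8* and *Th* overlapped. *Nos1* at 0.170 ± 0.0772, *Slc5a7* at 0.0920 ± 0.0914, *Chat* at 0.0523 ± 0.0454, *Slc18a3* at 0.0469 ± 0.0440 and *Ddc* at 0.0201 ± 0.0175 RPKM followed, each overlapping its neighbour in this order.

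In Ezh2-Y726D the first 6 places held the same genes in the same order. *Gjd2* was at 21.7 ± 0.432 and *Megf10* at 9.58 ± 0.355 RPKM, *Slc17a8* at 2.02 ± 0.0808, *Th* at 1.49 ± 0.0346, *Slc18a2* at 1.39 ± 0.0722 and *Nos1* at 0.458 ± 0.0907 RPKM. These did not overlap their neighbours. *Slc18a3* at 0.187 ± 0.0216 and *Slc5a7* at 0.183 ± 0.0244 RPKM overlapped each other, and *Chat* at 0.118 ± 0.0328 and *Ddc* at 0.0338 ± 0.0118 RPKM followed.

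Ratios between members were taken within each library and do not depend on its scaling. The ratio of *Megf10* to *Gjd2*, the most abundant members, was 0.442 in both groups (SD 0.0253 in GFP and 0.0249 in Ezh2-Y726D, exact 2-sided permutation P = 0.9). Relative to *Gjd2*, *Nos1* differed by 1.62, *Slc17a8* by 0.48 and *Th* by 0.23 on the log2 scale of RPKM, with exact P of 0.1, 0.1 and 0.2. Relative to *Slc17a8*, *Nos1* differed by 1.13 (exact P = 0.1) and *Th* by -0.25 (exact P = 0.3). An exact P of 0.1 is the smallest that this design allows, so no ratio could pass an adjustment over the 7 tests.

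The genes shared by most amacrine cells were higher in Ezh2-Y726D, and the members were set beside them. All 10 pan-amacrine genes were higher at an adjusted P under 0.05 in edgeR, with a median log2 fold change of 0.53 and a range from 0.38 to 0.74, and their summed level was between 1597 and 1729 CPM in GFP and between 2443 and 2527 CPM in Ezh2-Y726D. *Gad1* rose by 0.69 (SE 0.0429), *Gad2* by 0.61 (SE 0.0525), *Slc32a1* by 0.70 (SE 0.0530), *Slc6a9* by 0.74 (SE 0.0531) and the transcription factor gene *Tfap2b* by 0.54 on the log2 scale. In the plot of fold changes, *Nos1* and *Slc18a2* lie above all 10 pan-amacrine genes and *Slc17a8* lies within their range. *Th*, *Megf10* and *Gjd2* lie below that range. *Slc5a7* is not placed, because it did not pass the test and entered it through the group in which it was higher. Its point, at 0.90, lies above the 10 pan-amacrine genes, but its SE of 0.396 reaches into their range. No test of these differences between genes was made.

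**Figure D3:**
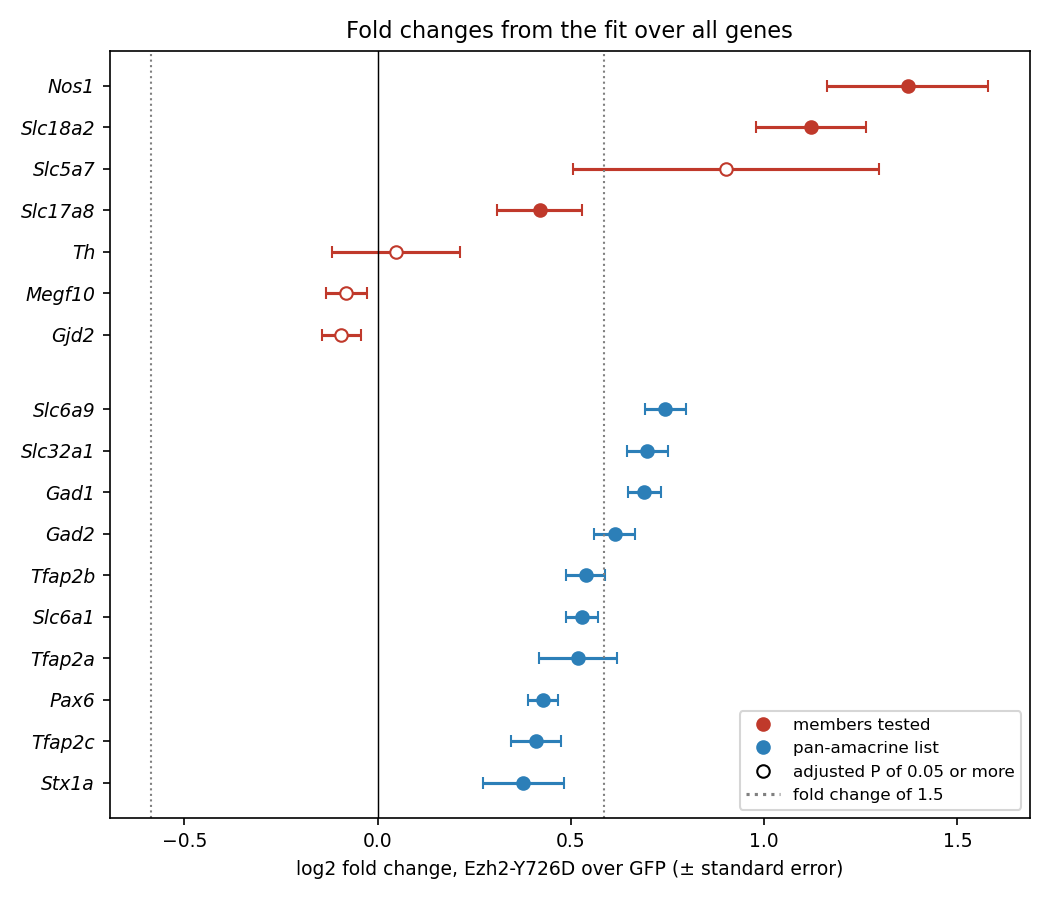
Log2 fold changes of Ezh2-Y726D over GFP with their SE (horizontal axis) for the 7 members tested (red) and the 10 pan-amacrine genes (blue), where open symbols have an adjusted P of 0.05 or more and dotted lines mark a fold change of 1.5. The members spread from -0.09 (*Gjd2*) to 1.37 (*Nos1*), and the pan-amacrine genes from 0.38 to 0.74.

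Divided by the summed pan-amacrine CPM of the same library, the 7 members tested fell into 3 classes. *Slc18a2* and *Nos1* were higher in every Ezh2-Y726D library than in every GFP library, *Megf10*, *Th* and *Gjd2* were lower, and *Slc5a7* and *Slc17a8* overlapped. *Chat*, *Slc18a3* and *Ddc* were not placed, because they had too few counts to be tested. Relative to the same sum, 0.91% of all genes tested were higher without overlap and 79.4% were lower, so that a place among the lower genes is common and a place among the higher genes is not. *Slc18a2* was at 1.93, 2.26 and 1.66 per 1000 pan-amacrine CPM in GFP and at 2.71, 2.99 and 3.04 in Ezh2-Y726D, a ratio of means of 1.49. *Nos1* was at 1.16, 1.58 and 0.623 and at 1.67, 1.94 and 2.54, a ratio of 1.83. *Slc17a8* overlapped between the groups, with a ratio of 0.879. *Th* had a ratio of 0.738, *Gjd2* of 0.628 and *Megf10* of 0.625. Relative to *Gad1*, *Gad2* and *Slc32a1* alone, *Slc17a8* was lower without overlap, with a ratio of 0.814. That sum itself rose, from between 395 and 430 CPM in GFP to between 664 and 686 CPM in Ezh2-Y726D. The share of all genes lower relative to it was not computed, so this place is not read as a result about *Slc17a8*.

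**Figure D4:**
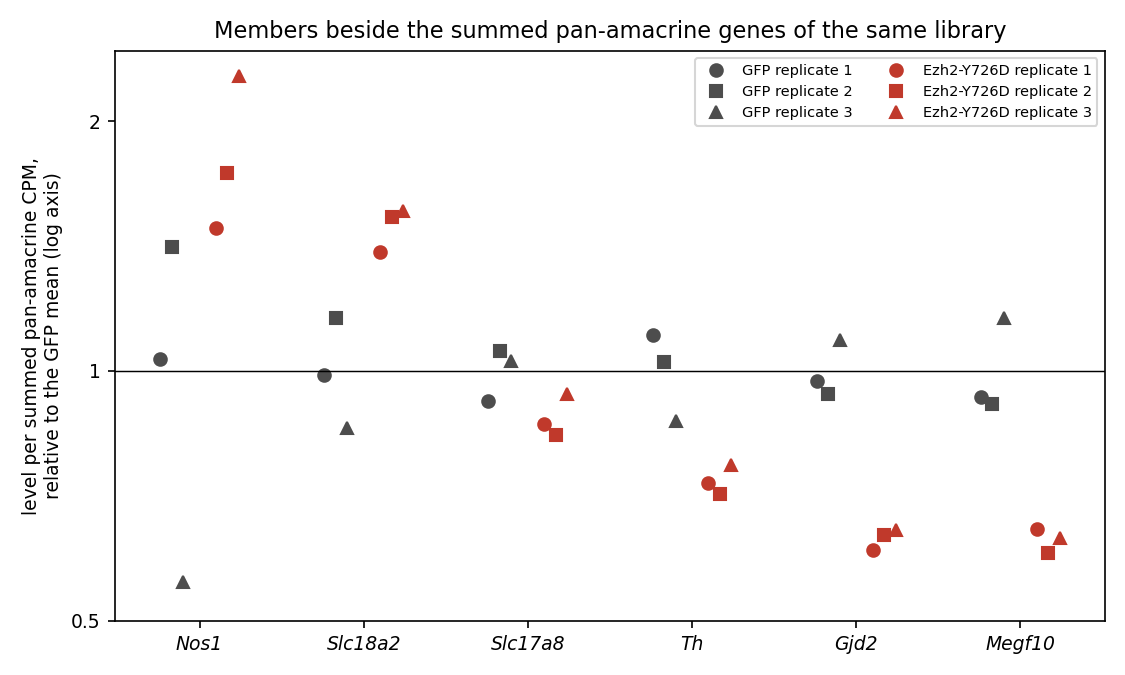
CPM of 6 members divided by the summed CPM of the 10 pan-amacrine genes of the same library, relative to the GFP mean (vertical log axis), in GFP (grey) and Ezh2-Y726D (red) replicates 1, 2 and 3 (circle, square and triangle). The Ezh2-Y726D libraries lie above the GFP libraries for *Nos1* and *Slc18a2*, overlap them for *Slc17a8*, and below them for *Th*, *Gjd2* and *Megf10*.

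Relative to the summed genes of retinal ganglion cells, which were at 444 to 458 CPM in GFP and 434 to 473 CPM in Ezh2-Y726D, 3 of the 7 members tested were higher without overlap, 4 overlapped and 0 were lower. The higher members were *Slc18a2* (ratio 2.21), *Slc17a8* (1.31) and *Nos1* (2.69). Of all genes tested, 16.9% were higher and 17.2% were lower by this measure. *Th* had a ratio of 1.09 and *Gjd2* of 0.934, both with overlapping groups.

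Other cell types differed between the groups as well. All 5 cone genes were lower at an adjusted P under 0.05, from between 344 and 360 CPM summed in GFP to between 228 and 238 CPM in Ezh2-Y726D. Of the bipolar genes 7 of 8 were lower and 1 was higher, from between 1032 and 1044 to between 837 and 861 CPM. Of 6 microglia genes 4 were lower and 1 was higher, from between 443 and 491 to between 298 and 352 CPM, and all 4 T cell genes were lower, from between 53.3 and 57.7 to between 32.2 and 36.6 CPM. Of the 10 ganglion cell genes 2 were higher and none was lower, of 3 horizontal cell genes tested none passed the test, and of 6 rod genes 2 were higher, from between 5343 and 5482 to between 5877 and 6059 CPM. The remaining lists, of 2 astrocyte, 4 endothelial and 3 pericyte genes tested, had 1, 2 and 2 genes lower and none higher. Of these genes, those past 1.5-fold were *Vsx1* and *Cabp5* of bipolar cells, *Opn1sw*, *Gnat2* and *Pde6h* of cones, *Apoe* of the Müller glia list, *C1qa* and *Trem2* of microglia and *Cd3e*, *Cd3d* and *Cd3g* of T cells, and all of them were lower. No marker of these lists was at 0 in all libraries, and their part in the differences of the 10 genes was not tested.

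The genes whose pattern over the 6 libraries was most like that of a member were found by the Euclidean distance between centred log2(CPM + 0.5) values among genes with a mean of at least 1 CPM. For *Th* these were *Plekhj1*, *Mtmr14* and *Cables2*, at distances of 0.0418, 0.0712 and 0.0762. For *Gjd2* they were *Gart*, *Galnt7* and *Ptp4a3*, at 0.0290, 0.0308 and 0.0347, and for *Chat* *Adamts4*, *Atn1* and *Gm49064*, at 0.214, 0.225 and 0.226. The nearest genes of *Chat* were thus farther from it than those of *Th* and *Gjd2* were from them. *Chat* itself was under the minimum of 1 CPM, at means of 0.246 CPM in GFP and 0.553 CPM in Ezh2-Y726D. With 0 to 19 counts per library, its distances rest on few counts and on the added 0.5. For *Chat* and *Th* the nearest genes also had their lowest level in GFP replicate 3, the library with the fewest counts.

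Across the 9 members with a promoter window in RefSeq, which gives 11 windows, motifs and CpG content differed between members. TATAAA, which 13.6% of promoters hold, was found in *Slc5a7* and in 1 of 2 windows of *Ddc*, which also holds TGANTCA. The GC box was found in *Slc18a3*, *Th*, *Slc18a2* and *Gjd2*, and none of the 4 motifs in *Chat*, *Slc17a8* and *Nos1*. The window of *Gjd2* held 41 CpG dinucleotides and that of *Slc18a3* 27, against a median of 7 and an upper quartile of 20 over all promoters. *Slc18a2* held 12, *Nos1* 6 and *Slc5a7* 1. *Megf10* had no entry.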

How the data were processed

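RNA was isolated with the PicoPure kit from the sorted cells, and libraries were made with the TruSeq Stranded Total RNA kit. The authors deposited whole-number read counts per gene for 32371 genes, without normalization, and their processing notes name STAR 2.7.0d and the build GRCm38. The counting tool, the annotation and the use of strand are not given in the sources used here. Columns were assigned to groups by their names.

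Counts were scaled by edgeR's TMM factors (0.647 to 1.31), filtered with filterByExpr and compared between 3 GFP and 3 Ezh2-Y726D libraries with edgeR's quasi-likelihood test (edgeR 4.0.16, R 4.3.3), with Benjamini-Hochberg adjustment over 18138 genes. Genes were called at the thresholds of the study, adjusted P below 0.05 with a change of more than 1.5-fold. The SE of a log2 fold change is its size divided by the square root of F. RPKM used exonic lengths of GENCODE vM21 (GRCm38), which also gave positions and symbols. The procedure was tested on simulated data. Precision follows depth, between 4460732 and 22024582 counts per library without the ribosomal RNA gene. No libraries agreed within sampling noise.

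Named genes are the 10 members, genes of the marker lists called with groups that do not overlap, a set of pathway and marker genes, *Ezh2*, and the 3 genes nearest in pattern to *Chat*, *Th* and *Gjd2*. *Glul*, *Gucy1a2* and *Prkg2* were named outside this rule. The members, lists and tests were chosen with earlier results of these data known. Alternatives were other scalings, DESeq2 1.42.0, other filters, thinning, a replicate block, other marker sums and leaving out libraries.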

Additional observations from a re-analysis of the deposited data

How the results depend on the processing

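*Slc18a2* stayed higher in all alternatives (adjusted P between 2.31e-12 and 0.0363, edgeR and DESeq2; 1.07 to 1.18 with each library left out), and *Nos1* in all in which it was tested (1.32e-12 to 0.00854; 1.19 to 1.51). Under a minimum of 10 counts in every library *Nos1* was not tested, and 1 member was called higher. Leaving out each library gave 2 to 3 members higher, the third being *Slc5a7* without GFP replicate 2.

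With library totals as the scaling, the median of all genes shifted to 0.49, *Megf10* to 0.42, *Gjd2* to 0.41 and *Slc17a8* to 0.89 (adjusted P = 0.367, edgeR), 46 genes were called higher and 19 lower (29.2% lower, against 68.6% of 457 and 998), and 0 and 0 of the other pathway genes were called, against 2 and 2. Library totals without the ribosomal RNA gene gave a median of -0.018, with 408 genes called higher and 1050 lower. *Megf10* was then at -0.10, *Gjd2* at -0.11 and *Slc17a8* at 0.40 (adjusted P = 0.00638, edgeR). With thinned counts *Slc17a8* did not pass (0.39, adjusted P = 0.112, edgeR). With each library left out it ranged from 0.34 to 0.46, *Slc5a7* from 0.65 to 1.26, and *Th* from -0.018 (without GFP replicate 3) to 0.21. Without both GFP libraries rich in ribosomal RNA, an alternative chosen after seeing the data, *Th* was at -0.048. DESeq2, a minimum of 10 counts in every library and thinning gave 291, 268 and 292 genes higher, and 0, 1 and 1 other pathway genes lower. The minimum of 10 counts left 1 pathway gene higher. With each library left out the pathway genes lower numbered 0 (without GFP replicate 1), 1 (without Ezh2-Y726D replicate 1) to 3. Relative to ganglion cell instead of pan-amacrine genes, the log2 ratio of means was -0.10 instead of -0.68 for *Megf10*, 0.13 instead of -0.44 for *Th*, 1.14 instead of 0.58 for *Slc18a2*, 0.39 instead of -0.19 for *Slc17a8* (-0.30 with *Gad1*, *Gad2* and *Slc32a1*) and -0.10 instead of -0.67 for *Gjd2*, because the ganglion cell genes did not move with the pan-amacrine genes. The cause of the other shifts was not tested.

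Replicate numbers recur in both groups, but deviations of libraries with the same number correlated by only 0.106, 0.0416 and 0.0306, so they were not taken as pairs, although 6 of 6 libraries matched their own number best. With the number as a block, 2 members were called higher and 0 lower, and 421 and 982 of all genes. Depth limits *Chat*, *Slc18a3* and *Ddc*, which no fit with all libraries and the filter could test.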

Other observations

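Markers of further amacrine types also differed in both directions. Of 12 such genes tested, 7 were higher and 1 was lower at an adjusted P under 0.05 in edgeR. The higher genes include *Gbx2*, which passed the filter on low counts through the Ezh2-Y726D libraries alone. The neuropeptide gene *Vip* was at 1.75, 2.58 and 1.82 CPM in GFP and at 11.6, 12.5 and 13.6 CPM in Ezh2-Y726D, a 6.51-fold rise (SE 0.149 on the log2 scale, adjusted P = 6.86e-14, edgeR). *Npy* rose by 1.21, *Tac1* by 1.02 and *Cartpt* by 0.77, and *Penk* fell by 0.59 on the log2 scale. *Gbx2*, a homeobox gene, had 3, 0 and 0 counts in GFP and 28, 18 and 20 in Ezh2-Y726D, and no fold is given because its GFP libraries were at or under 3 counts.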
